A study of Mus musculus with 9 samples.

Results

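The mRNA levels of the 5 NF-κB subunits (Nfkb1, Nfkb2, Rel, Rela and Relb), the 3 classical IκB inhibitors (Nfkbia, Nfkbib and Nfkbie) and the 2 atypical nuclear IκB proteins (Nfkbiz and Nfkbid) were measured by RNA-seq in mouse splenic CD4+ T cells. These 10 genes were chosen by name, as the members of the NF-κB and IκB families, from the 55487 genes of the expression table. Earlier results of these data were known at that choice, so the shares over all genes given below are descriptions and not a test. All 10 passed the filter on low values. The series comprised 9 libraries in 3 groups of 3, all from wild-type C57BL/6 mice carrying the TRAIL receptor (Trail-r+/+), which the methods describe as females of 6 to 7 weeks. Cells of the medium group received no antibody. Cells of the stimulated group were exposed for 24 h to 2 antibodies (Abs), anti-CD3 (3 µg/ml) against the T cell receptor (TCR) complex and anti-CD28 (2 µg/ml) against its costimulatory receptor. The TRAIL-treated group had the same Abs for 24 h in the presence of the death-receptor ligand TRAIL at 10 µg/ml. How long the medium cells were cultured is not given in the sources used here, and TRAIL without Abs was not analysed here. The comparisons ask how TCR stimulation and TRAIL change the set of NF-κB and IκB transcripts that the cells hold.

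NF-κB proteins bind DNA as dimers of Rel-family subunits. In resting T cells the classical IκB proteins hold these dimers in the cytoplasm. Signals from the TCR and CD28 reach the IκB kinase (IKK), which marks IκB for destruction and frees the dimers to enter the nucleus. Many genes of the pathway are themselves targets of NF-κB, among them the inhibitor Nfkbia, so that their mRNA is part of a feedback loop. The atypical proteins IκBζ (Nfkbiz) and IκBNS (Nfkbid) act in the nucleus, where they bind DNA-bound subunits and tune the transcription of selected genes.

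Values are transcripts per 1000000 (TPM), a share of each library. They are divided by transcript length and can therefore be compared between genes, but they keep no read depth. Differences were tested with limma on log2(TPM + 1) in 1 fit of 9 libraries over 15536 genes, and p-values were adjusted by the Benjamini-Hochberg method over all of these genes. A gene is said to have risen or fallen when its adjusted p was under 0.05, and it is called when its log2 fold change was also at least 1 in size, which is at least 2-fold on that scale. The labels do not say that the libraries of a group came from separate animals, so the p-values measure only the spread between these samples, which may be technical. The correlation of log2(TPM + 1) between libraries of a group was 0.983 to 0.993, and stimulated replicate 1 stood slightly apart, with the lowest mean correlation with its own group (0.984) and the fewest genes at 1 TPM or more (13691, against 13953 and 14015 in the other stimulated libraries). Every group held CD4+ T cell transcripts, with Cd3d at 133 to 166 TPM, Cd3e at 297 to 399 TPM and Cd4 at 220 to 384 TPM as group means. Markers of other cells were present too and moved with the groups: the summed TPM of 10 B cell markers lay between 6598 and 7305 for medium, 767 and 842 for stimulated, and 3232 and 3743 for TRAIL-treated cells, although the cells had been isolated by negative selection.

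Promoter sequences are shown first, since the NF-κB genes are known for κB elements in their own promoters and the members of this family moved in different directions. The RefSeq promoter table (build GRCm38.p6, 250 bases before to 50 bases after each start) held 11 windows for 7 of the 10 genes, namely Nfkb2, Rel, Rela, Nfkbia, Nfkbib, Nfkbie and Nfkbid; Nfkb1, Relb and Nfkbiz had no entry. The κB consensus, a degenerate element of 10 bases, was searched on both strands with overlapping matches allowed. It was found in at least 1 window of 5 of these 7 genes (Nfkb2, Rel, Nfkbia, Nfkbie and Nfkbid) and in none of the windows of Rela and Nfkbib. Among all 32851 promoters of the table, 1480 (4.51%) held a match, 0.554% held at least 2 and 0.0517% held at least 3; by gene, the share was 5.14% of 27025. Windows of 5 members are printed below from 5′ to 3′ on the strand of the gene, with the matching bases in capitals. Nfkb2 and Rel are given because these subunits moved in opposite directions, Nfkbia and Nfkbid as IκB genes that were highest with TRAIL, and Nfkbie as the member for which no comparison passed the test. The windows are, of the 3 listed starts of Nfkb2, the first, which has 3 matches where the others have 2 and 1, at chr19:46304487-46304786 (plus strand), Rel at chr11:23770920-23771219 (minus strand), Nfkbia at chr12:55492598-55492897 (minus strand), Nfkbie at chr17:45555450-45555749 (plus strand) and, of the 3 listed starts of Nfkbid, the second at chr7:30422156-30422455 (plus strand).
Nfkb2 first promoter: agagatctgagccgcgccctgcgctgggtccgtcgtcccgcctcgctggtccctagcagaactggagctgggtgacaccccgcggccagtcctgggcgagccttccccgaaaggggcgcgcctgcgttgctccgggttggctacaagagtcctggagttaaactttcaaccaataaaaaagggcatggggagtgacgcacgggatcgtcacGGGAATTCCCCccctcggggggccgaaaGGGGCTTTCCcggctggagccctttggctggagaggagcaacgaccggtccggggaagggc
Rel promoter: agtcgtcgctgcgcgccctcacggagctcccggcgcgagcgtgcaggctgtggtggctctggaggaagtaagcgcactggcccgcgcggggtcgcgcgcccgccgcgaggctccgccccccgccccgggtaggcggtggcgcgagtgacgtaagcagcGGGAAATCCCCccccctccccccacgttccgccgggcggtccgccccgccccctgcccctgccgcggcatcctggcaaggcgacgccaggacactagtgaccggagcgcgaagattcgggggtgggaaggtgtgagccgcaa
Nfkbia promoter: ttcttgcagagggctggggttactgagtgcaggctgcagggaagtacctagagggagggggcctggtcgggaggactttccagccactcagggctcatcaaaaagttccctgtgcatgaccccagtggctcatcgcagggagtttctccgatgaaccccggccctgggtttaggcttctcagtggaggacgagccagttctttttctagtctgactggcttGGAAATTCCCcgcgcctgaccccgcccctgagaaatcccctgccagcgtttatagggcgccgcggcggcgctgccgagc
Nfkbie promoter: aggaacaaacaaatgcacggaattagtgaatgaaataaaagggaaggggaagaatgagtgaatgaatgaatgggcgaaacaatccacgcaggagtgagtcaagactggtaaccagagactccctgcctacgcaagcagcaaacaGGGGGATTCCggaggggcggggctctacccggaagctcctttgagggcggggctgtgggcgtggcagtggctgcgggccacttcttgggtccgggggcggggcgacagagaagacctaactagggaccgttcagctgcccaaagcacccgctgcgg
Nfkbid second promoter: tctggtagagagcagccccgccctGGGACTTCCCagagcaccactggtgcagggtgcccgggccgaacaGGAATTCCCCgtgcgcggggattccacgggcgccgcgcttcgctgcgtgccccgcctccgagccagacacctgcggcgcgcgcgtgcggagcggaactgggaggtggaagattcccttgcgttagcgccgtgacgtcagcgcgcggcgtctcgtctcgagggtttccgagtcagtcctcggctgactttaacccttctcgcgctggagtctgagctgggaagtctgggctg

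In the first Nfkb2 window the capitals hold 3 matches, a palindromic GGGAATTCCC that begins at -39 relative to the start, a match on the other strand that overlaps it from -38, and GGGGCTTTCC from -11. In Rel GGGAAATCCC at -92, which fits the consensus read on either strand, overlaps a match on the other strand from -91. Nfkbia has GGAAATTCCC from -29, which reads GGGAATTTCC on the other strand, and Nfkbie has GGGGGATTCC from -106. The second Nfkbid window has GGGACTTCCC from -226 and GGAATTCCCC from -181, and the other Nfkbid windows have no match. A match describes these letters and is not evidence that a factor bound there, and binding was not tested. Sites outside the windows were not searched. Genes with a match moved up, down or did not pass the test in these libraries. On stimulation Nfkbib, with no match in its window, rose by 1.56 on the log2 scale, and Nfkb2, with matches, by 1.49.

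The subunits divided into Nfkb1, Nfkb2, Rela and Relb, which were highest in stimulated cells and lay near the medium level with TRAIL, and Rel, which was lowest in stimulated cells and highest with TRAIL. Of the 10 genes, 4 were called higher in stimulated than in medium cells (Nfkb1, Nfkb2, Relb and Nfkbib), against 12.4% of all genes tested, and none was called lower, against 19.5% of all genes. By the adjusted p alone, 6 rose (28.8% of all genes did) and 3 fell (40% did). The median log2 fold change of the 10 genes was 0.57 and that of all tested genes was -0.15. Between TRAIL-treated and stimulated cells, 3 were called higher (Rel, Nfkbiz and Nfkbid; 16.6% of all genes) and 3 lower (Nfkb1, Nfkb2 and Nfkbib; 14.3%), while 4 rose and 5 fell by the adjusted p alone, where 33.5% of all genes rose and 33.5% fell. The median of the 10 genes was -0.31 in that comparison and 0.011 over all genes. Both comparisons use the same stimulated libraries, so that opposite signs in them are not independent.

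Compared with medium, TRAIL-treated cells had 4 genes called higher (Rel, Nfkbia, Nfkbiz and Nfkbid; 2.49% of all genes) and none called lower (2.13%). By the adjusted p alone 5 rose, Nfkbib being the fifth (8.03% of all genes), and none fell (24.6%). The median was 0.26, against -0.18 over all genes tested. Rel, Nfkbiz and Nfkbid were called higher in TRAIL-treated cells than in both other groups, 3 of 10 genes against 1.35% of all genes, and no member was called lower than both, against 0.174%. TRAIL-treated cells thus differed from medium cells in Rel and in 4 of the 5 IκB genes, and the other 4 subunits did not pass the test.

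**Figure D1:**
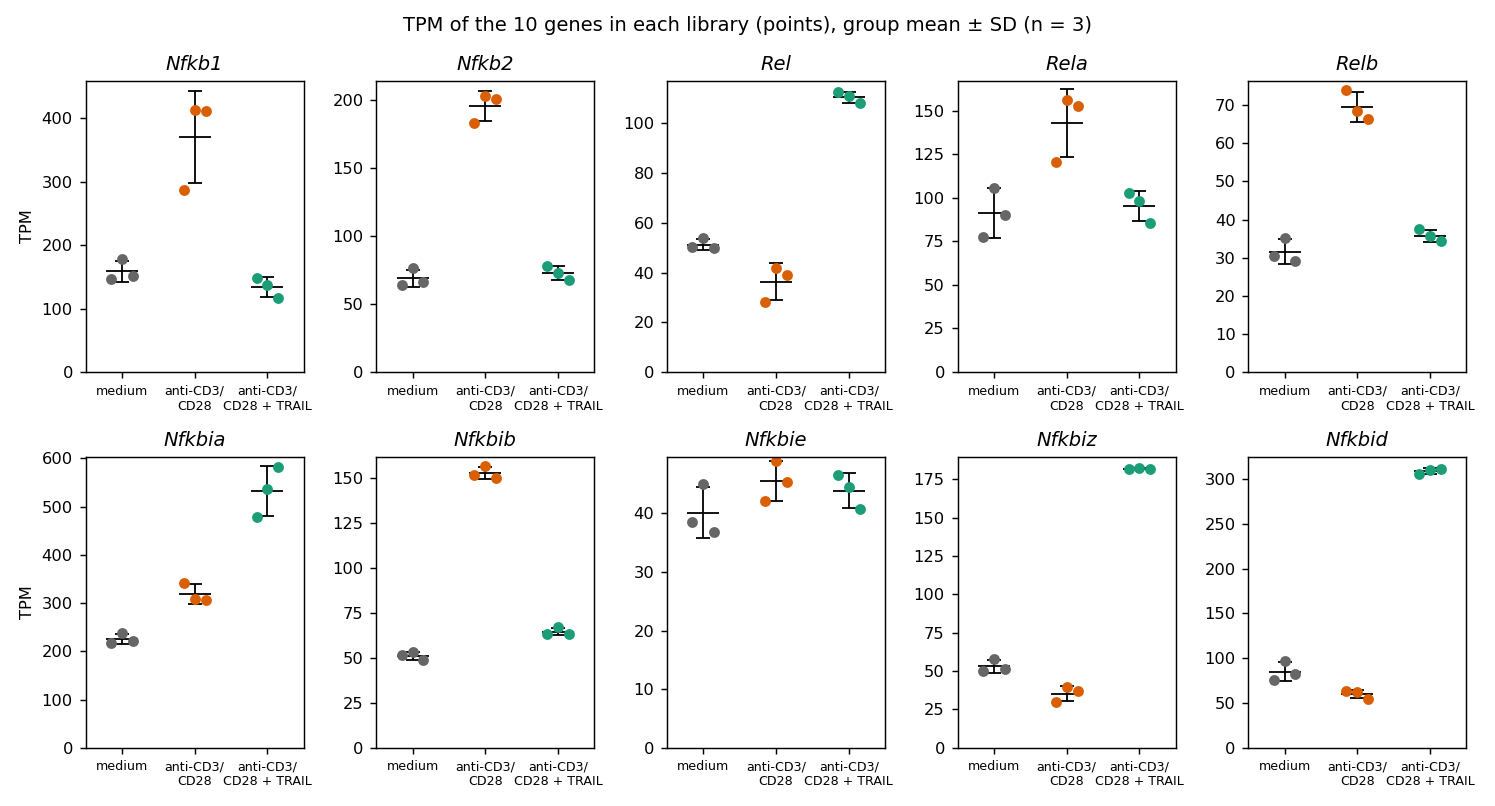
TPM of the 10 genes in each of the 9 libraries (points), with the mean and SD of each group (n = 3) as lines and bars; each panel has its own axis from 0. Nfkb1, Nfkb2, Rela, Relb and Nfkbib peaked in stimulated cells, Rel, Nfkbia, Nfkbiz and Nfkbid were highest in TRAIL-treated cells, and the 3 groups overlap in Nfkbie.

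Nfkb1 (chr3:135584655-135691547, minus strand, GRCm38) encodes a precursor that is processed to a DNA-binding subunit without an activation domain of its own. It was measured at 146, 178 and 151 TPM in medium, at 287, 413 and 411 TPM after stimulation and at 147, 138 and 116 TPM with TRAIL. All stimulated libraries lay above the other groups, which overlap. The gene rose by 1.20 ± 0.16 (log2, SE; adjusted p = 6.2e-05) on stimulation and was lower by a log2 difference of -1.45 ± 0.16 (adjusted p = 1.6e-05) with TRAIL. Against medium the difference was -0.24 (95% interval -0.59 to 0.10, adjusted p = 0.258), from -0.32 to -0.15 with 1 library left out and -0.05 under median-of-ratios scaling, and it did not pass the test in any of these. Without stimulated replicate 1, in which Nfkb1 was lowest of its group, the values were 1.38 and -1.62.

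Nfkb2 (chr19:46304320-46312385, plus strand) and Relb (chr7:19606217-19629438, minus strand) encode the partners of the non-canonical pathway, Nfkb2 again as a precursor that holds RelB back until it is processed. Nfkb2 was at 64.0, 76.3 and 66.6 TPM in medium, at 183, 203 and 201 TPM after stimulation and at 77.8, 73.0 and 67.7 TPM with TRAIL. Relb was at 30.4, 35.2 and 29.0 TPM in medium, at 74.0, 68.3 and 66.3 TPM after stimulation and at 37.5, 35.6 and 34.3 TPM with TRAIL. In both genes the stimulated libraries did not overlap with the others, and the medium and TRAIL-treated libraries overlapped. Nfkb2 rose by 1.49 ± 0.10 (adjusted p = 4.3e-07) and differed by -1.41 ± 0.10 (adjusted p = 6.9e-07) with TRAIL, and Relb rose by 1.12 ± 0.10 (adjusted p = 4.0e-06) and differed by -0.94 ± 0.10 (adjusted p = 1.6e-05). With TRAIL compared with medium, the differences were 0.08 (95% interval -0.14 to 0.30) for Nfkb2 and 0.18 (-0.04 to 0.41) for Relb, neither of which passed the test; under median-of-ratios scaling both did, at 0.27 and 0.37 (adjusted p = 0.0252 and 0.0283). Nfkb2 overlaps the noncoding gene AC114539.1 on the opposite strand, which reached at most 12.6 TPM in any library.

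Rela (chr19:5637483-5648130, plus strand) encodes the main transactivating subunit of the canonical dimer, and Rel (chr11:23736847-23770970, minus strand) encodes c-Rel, the transactivating subunit known for its part in lymphocyte activation. Rela was at 77.6, 106 and 90.1 TPM in medium, at 120.3, 156 and 153 TPM after stimulation and at 103, 98.1 and 85.8 TPM with TRAIL. It moved in the same directions as Nfkb1, by 0.65 ± 0.14 (adjusted p = 0.0023) on stimulation and -0.57 ± 0.14 (adjusted p = 0.0046) with TRAIL, so that it passed the test without being called; the latter was -0.35 under quantile normalization (adjusted p = 0.0256). Rel was at 50.2, 53.7 and 49.7 TPM in medium, at 28.1, 41.8 and 39.2 TPM after stimulation and at 113, 111 and 108 TPM with TRAIL. No Rel library of any group overlapped with another group. Rel fell by 0.50 ± 0.13 on stimulation (adjusted p = 0.0074), or by 0.33 without stimulated replicate 1 (adjusted p = 0.0058), and was higher with TRAIL by 1.60 ± 0.13 (adjusted p = 2.7e-06) against stimulated cells, a ratio of mean TPM of 3.04, and by 1.09 ± 0.13 (adjusted p = 0.00034) against medium. The ratio of Rel to Rela within a library ranged from 0.507 to 0.647 in medium, from 0.234 to 0.268 after stimulation and from 1.10 to 1.26 with TRAIL.

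**Figure D2:**
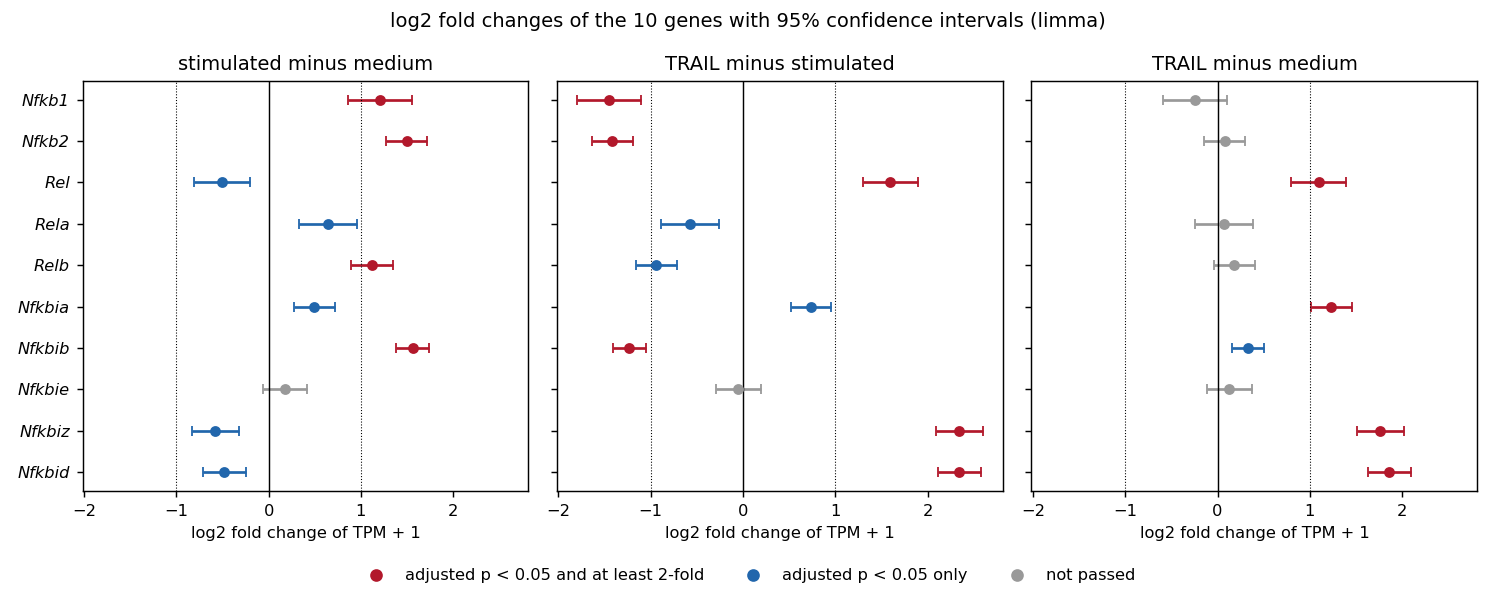
Log2 fold changes of TPM + 1 for the 10 genes in the 3 comparisons (points) with 95% confidence intervals from limma (bars); red marks an adjusted p under 0.05 with at least a 2-fold difference, blue an adjusted p under 0.05 only, grey neither, and the dotted lines stand at -1 and 1. The intervals of Nfkbie include 0 in all 3 panels, and those of Nfkbiz and Nfkbid lie above 2 in the middle panel.

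Among the classical inhibitors, the 3 genes behaved in 3 ways. Nfkbia (chr12:55489410-55492647, minus strand) encodes IκBα, the inhibitor that NF-κB itself induces and that terminates a response. It was at 218, 237 and 221 TPM in medium, at 342, 308 and 306 TPM after stimulation and at 478, 537 and 583 TPM with TRAIL, and it was the only member in which each step was higher than the one before, with no overlap between groups. Nfkbia rose by 0.50 ± 0.10 on stimulation (adjusted p = 0.0012), by 0.73 ± 0.10 from stimulated to TRAIL-treated cells (adjusted p = 8.0e-05) and by 1.23 ± 0.10 from medium to TRAIL-treated cells (adjusted p = 2.1e-05), of which the last was called.

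Nfkbib (chr7:28758251-28767512, minus strand) encodes IκBβ, which is known for slower turnover than IκBα. Its libraries held 51.5, 53.1 and 48.8 TPM in medium, 152, 156 and 150.1 TPM after stimulation and 63.4, 66.9 and 63.4 TPM with TRAIL, with no overlap. It had the largest rise of the 10 genes on stimulation, 1.56 ± 0.08 (adjusted p = 6.1e-08), and differed by -1.23 ± 0.08 with TRAIL (adjusted p = 3.8e-07). Compared with medium it was higher with TRAIL by 0.33 ± 0.08 (adjusted p = 0.0112), and that call of a rise was lost without medium replicate 3 (0.30, adjusted p = 0.0569) or without TRAIL-treated replicate 2 (0.30, adjusted p = 0.0514), whereas the difference was 0.52 under median-of-ratios scaling. Nfkbib overlaps Sirt2 on the opposite strand, and whether reads were counted by strand is not given in the sources used here; Sirt2 itself was at 73.7, 77.8 and 68.8 TPM as group means and passed the test in no comparison.

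Nfkbie (chr17:45555703-45563169, plus strand) encodes IκBε. It was at 38.4, 45.1 and 36.9 TPM in medium, at 42.2, 49.0 and 45.3 TPM after stimulation and at 46.5, 44.5 and 40.7 TPM with TRAIL, and the 3 groups overlapped. The differences were 0.18 on stimulation (95% interval -0.06 to 0.42, adjusted p = 0.163), -0.05 with TRAIL compared with stimulated cells (-0.29 to 0.19, adjusted p = 0.697) and 0.13 compared with medium (-0.11 to 0.37, adjusted p = 0.386). These intervals leave out a 2-fold difference in either direction. The first and the last passed the test under median-of-ratios scaling, at 0.27 and 0.32 (adjusted p = 0.0130 and 0.0190).

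The atypical nuclear IκB genes had the largest differences of the 10 genes with TRAIL. Nfkbiz (chr16:55811375-55838899, minus strand) encodes IκBζ, known as an inducible coactivator of secondary response genes such as Il6. It was at 49.8, 57.9 and 51.3 TPM in medium, at 29.7, 39.4 and 36.9 TPM after stimulation and at 181, 182 and 182 TPM with TRAIL. The groups did not overlap, and the TRAIL-treated libraries were 5.14 times the stimulated level and 3.43 times the medium level by their means. Nfkbiz fell by 0.58 ± 0.11 on stimulation (adjusted p = 0.0012) and was higher with TRAIL by 2.34 ± 0.11 against stimulated cells (adjusted p = 5.1e-08) and by 1.76 ± 0.11 against medium (adjusted p = 5.2e-06).

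Nfkbid (chr7:30421732-30428746, plus strand) encodes IκBNS, known for its part in the development of regulatory T cells and in Il2 transcription. It was at 76.1, 96.5 and 81.9 TPM in medium, at 63.5, 62.6 and 54.9 TPM after stimulation and at 306, 310.2 and 312 TPM with TRAIL. Here too no group overlapped with another. Nfkbid fell by 0.48 ± 0.11 on stimulation (adjusted p = 0.0022) and was higher with TRAIL by 2.34 ± 0.11 against stimulated cells (adjusted p = 2.9e-08), a ratio of 5.13, and by 1.86 ± 0.11 against medium (adjusted p = 2.0e-06), a ratio of 3.65. Because these are bulk libraries, less of a transcript per cell and fewer cells that hold it cannot be told apart for any of these genes.

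In order of mean TPM, the medium libraries held Nfkbia (226 ± 10.2, SD, n = 3), Nfkb1 (158 ± 17.0), Rela (91.2 ± 14.2), Nfkbid (84.8 ± 10.5), Nfkb2 (68.9 ± 6.47), Nfkbiz (53.0 ± 4.29), Rel (51.2 ± 2.20), Nfkbib (51.1 ± 2.15), Nfkbie (40.1 ± 4.34) and Relb (31.5 ± 3.28). Libraries of neighbours in that order overlapped for Rela and Nfkbid, Nfkbid and Nfkb2, Nfkbiz and Rel, and Rel and Nfkbib. After stimulation Nfkb1 (370.2 ± 71.9) and Nfkbia (319 ± 20.1) overlapped at the top, followed by Nfkb2 (196 ± 11.1), Nfkbib (153 ± 3.21) and Rela (143 ± 19.7), of which the last pair overlapped. Below them came Relb (69.5 ± 4.03), Nfkbid (60.3 ± 4.71) and Nfkbie (45.5 ± 3.41), and the lowest were Rel (36.4 ± 7.27) and Nfkbiz (35.3 ± 5.05), which overlapped. With TRAIL the order was Nfkbia (532 ± 52.7), Nfkbid (309 ± 2.94), Nfkbiz (182 ± 0.281), Nfkb1 (134 ± 15.9), Rel (110.5 ± 2.28), Rela (95.5 ± 8.72), Nfkb2 (72.8 ± 5.07), Nfkbib (64.6 ± 2.05), Nfkbie (43.9 ± 2.95) and Relb (35.8 ± 1.57), with no overlap between any neighbours. IκB genes, classical or atypical, thus held the first 3 places with TRAIL, and Nfkbia was the only IκB gene among the first 3 in the medium and stimulated groups.

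Ratios within a library do not depend on how libraries are scaled to each other, and they are given here as descriptions. The sum of the 5 subunits ranged from 368 to 449 TPM in medium, from 693 to 882 TPM after stimulation and from 412 to 478 TPM with TRAIL. Nfkbia, Nfkbib and Nfkbie together were at 0.837, 0.747 and 0.794 of the subunit sum in medium, 0.774, 0.583 and 0.577 after stimulation and 1.23, 1.42 and 1.67 with TRAIL. Transcripts of the 3 classical IκB genes therefore outnumbered subunit transcripts in all TRAIL-treated libraries and in no other library, and stimulated replicate 1 lay within the medium range. Nfkbiz plus Nfkbid ranged from 0.342 to 0.344 of the subunit sum in medium, from 0.106 to 0.134 after stimulation and from 1.02 to 1.20 with TRAIL, with no overlap between groups.

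Within the subunits, Rel took 13.6, 12.0 and 12.9% of the summed TPM in the medium libraries, 4.06 to 4.74% after stimulation and 23.5 to 26.2% with TRAIL. Nfkb1 took 39.1 to 39.7%, 41.5 to 47.2% and 28.2 to 30.9% in that order of groups. The ratio of Nfkb2 plus Relb to Nfkb1 plus Rel plus Rela was 0.344, 0.330 and 0.328 in medium, 0.590, 0.444 and 0.444 after stimulation and 0.318, 0.313 and 0.329 with TRAIL. Transcripts of the non-canonical pair thus made up a larger part of the subunits in every stimulated library than in any other. The ratio of Nfkbia to Nfkbib, the pair of classical IκB genes that moved in opposite directions with TRAIL, ran from 4.24 to 4.53 in medium, from 1.97 to 2.25 after stimulation and from 7.54 to 9.20 with TRAIL.

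**Figure D3:**
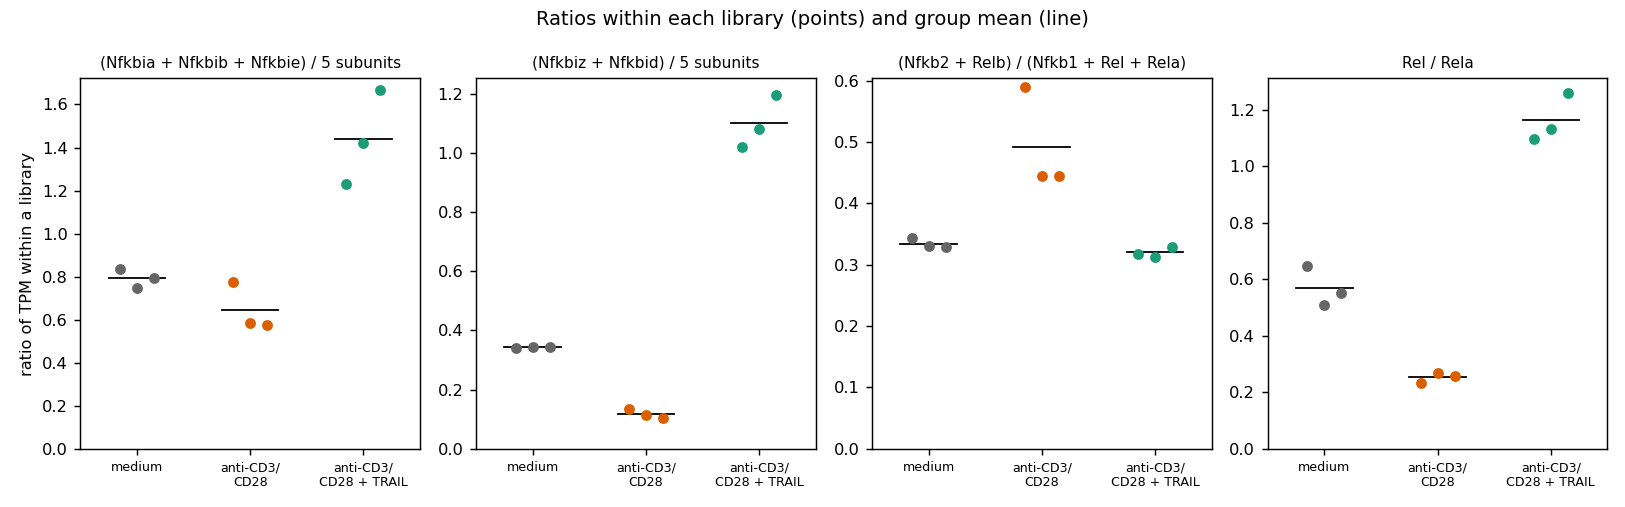
Ratios of TPM within each library (points) and their group means (lines) for the summed classical IκB genes over the 5 subunits, Nfkbiz plus Nfkbid over the 5 subunits, Nfkb2 plus Relb over Nfkb1 plus Rel plus Rela, and Rel over Rela. The first 2 ratios and the last are above 1 in all TRAIL-treated libraries and below 1 in all others, and the third is highest in the stimulated libraries.

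Across the 9 libraries, the Pearson correlation of log2(TPM + 1) was 0.991 between Rel and Nfkbiz and 0.991 between Nfkbiz and Nfkbid, and it was 0.984 between Nfkb2 and Relb and 0.988 between Relb and Nfkbib. Rel and Nfkb1 had a correlation of -0.738. These values are descriptions over 9 points that share 3 groups, so that they mostly repeat the differences between group means. By the same measure, the genes most like Nfkb1 among 10446 candidates were Cad (0.9998), Ly75 and Eftud2, those most like Nfkb2 were Ppan (0.999), Bysl and Hnrnpm, and those most like Nfkbib were Nabp1 (0.999), Slc16a3 and Trib3. The genes most like Rel were Jmy (0.998), Samd8 and Spty2d1, those most like Nfkbiz were Trp53inp2 (0.998), Hspa2 and Spty2d1, and those most like Nfkbid were Gm17971 (0.995), Tgif1 and Tob2. For Nfkbia they were Rgcc (0.991), Gem and Maff, for Rela Stat3 (0.991), Wbp11 and Mta1, for Relb Gm10291 (0.994), Gm11847 and Pim2, and for Nfkbie Csnk1d (0.953), Spop and Bicdl1.

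The genes also differed in structure. In the representative transcripts of GENCODE M21, Rel had the longest 3′ UTR of the family at 5418 bases, with 12 copies of AUUUA, the core of AU-rich elements that are known to mark short-lived mRNAs, against medians of 908 bases and 1 copy over 11843 protein-coding genes tested. Nfkbiz had 4 copies in 1355 bases, Nfkb1 had 4 in 700 bases, Nfkbia had 2 in 512 bases, Nfkb2 had 1 in 133 bases and Nfkbid had 1 in 559 bases. Rela, Relb, Nfkbib and Nfkbie had none. Counts grow with the length of the 3′ UTR, and per kilobase the order was another one: Nfkb2 (7.52) and Nfkb1 (5.71) were highest, followed by Nfkbia (3.91), Nfkbiz (2.95), Rel (2.21) and Nfkbid (1.79), against a median of 1.31.

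Bcl3, which encodes a further nuclear IκB-like protein that binds the processed products of Nfkb1 and Nfkb2, did not follow Nfkbiz and Nfkbid. It was at 27.0, 37.6 and 33.0 TPM in medium, at 165, 186 and 174 TPM after stimulation and at 29.0, 29.1 and 24.2 TPM with TRAIL, and the medium and TRAIL-treated libraries overlapped. Bcl3 rose by 2.40 ± 0.13 (adjusted p = 9.4e-08) and differed by -2.63 ± 0.13 (adjusted p = 5.6e-08) with TRAIL. Like Nfkb2 and Relb it was highest in stimulated cells, and its difference between TRAIL-treated and medium cells (-0.23) did not pass the test. Nfkbil1, the other relative tested, was called in no comparison, and Ankrd1 was listed at 0.0001 TPM in every library and not tested.

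Of 18 genes for the IKK complex and the proteins that signal to it, 1 was called higher and 3 lower on stimulation, where 12.4% and 19.5% of all genes were. With TRAIL compared with stimulated cells 3 were called higher and none lower (16.6% and 14.3% of all genes), so that these counts lie near or below those shares. None was called in either direction with TRAIL compared with medium (2.49% and 2.13%), with medians of -0.36, 0.16 and -0.03 on the log2 scale. Traf5, an adaptor of tumor necrosis factor receptors, was at 83.9, 14.6 and 73.7 TPM in the 3 groups as means, and Ikbkb, the catalytic kinase of the canonical pathway, at 182, 78.1 and 140.4 TPM. Both were called lower on stimulation (-2.44 ± 0.12, adjusted p = 6.1e-08, and -1.22 ± 0.16, adjusted p = 7.2e-05). With TRAIL, Traf5 was called higher than in stimulated cells (2.26 ± 0.12, adjusted p = 1.2e-07), and Ikbkb rose without being called (0.84 ± 0.16, adjusted p = 0.0010).

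Of 25 feedback and target genes of NF-κB, 13 were called higher and 2 lower on stimulation (median 1.12), where 12.4% and 19.5% of all genes were. With TRAIL compared with stimulated cells 4 were called higher and 13 lower (median -1.01), against 16.6% and 14.3% of all genes, so that the higher calls lie near the share over all genes. With TRAIL compared with medium 7 were called higher and none lower (median 0.28), against 2.49% and 2.13%. Il2ra, the high-affinity chain of the IL-2 receptor, was at 24.0, 868 and 23.2 TPM (5.11 and -5.16 in the first pair of comparisons), and the cytokine gene Csf2 at 0.345, 27.2 and 0.473 TPM (4.39 and -4.26). The chemokine gene Ccl4 was at 5.28, 158 and 47.2 TPM and Ccl3 at 19.6, 188 and 71.0 TPM, both called higher than medium with TRAIL too (2.93 and 1.80). Tnip3, an inhibitor of NF-κB signaling, was at 0.972, 29.0 and 0.622 TPM. These genes were highest in stimulated cells, as Nfkb1 and Nfkb2 were, whereas Cd40lg, the ligand of CD40, was lowest there, at 104, 31.6 and 196 TPM, with calls of -1.68 and 2.59.

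Tnfaip3, which encodes a ubiquitin-editing enzyme that ends NF-κB signaling, was at 96.1, 98.4 and 82.9 TPM in medium, at 94.5, 126 and 124 TPM after stimulation and at 696, 736 and 713 TPM with TRAIL. Tnfaip3 rose by 0.30 ± 0.12 on stimulation (adjusted p = 0.0492) with overlapping libraries, and the TRAIL-treated libraries were apart, by 2.64 ± 0.12 (adjusted p = 3.5e-08) from stimulated and by 2.94 ± 0.12 (adjusted p = 3.3e-07) from medium cells. Together with Cd83 (69.9, 84.3 and 185 TPM) and Gadd45b (68.2, 74.2 and 161 TPM), it was 1 of 3 among the 25 targets that were called higher with TRAIL than in both other groups, against 1.35% of all genes, as Rel, Nfkbiz and Nfkbid were. Other negative regulators in the list did not share this pattern: between TRAIL-treated and stimulated cells Tnip2 and Tnip3 were called lower (-1.07 and -4.22), Otud7b fell without being called (-0.61), and Tnip1 (0.37) and Cyld (0.20) did not pass the test.

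**Figure D4:**
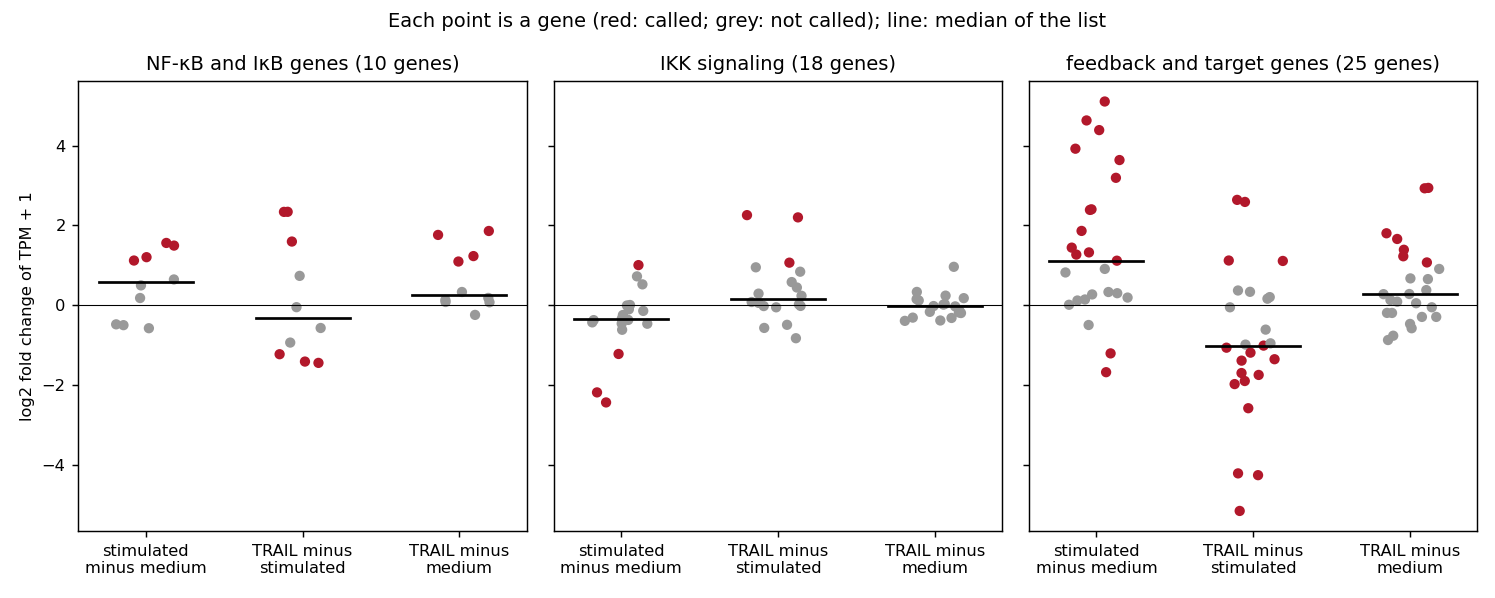
Log2 fold changes of TPM + 1 for the 10 NF-κB and IκB genes, the 18 genes of IKK signaling and the 25 feedback and target genes in the 3 comparisons; each point is a gene, red if called and grey if not, and the line is the median of the list. The medians of the target genes stand at 1.12, -1.01 and 0.28, and the 10 genes have called points on both sides only in the middle comparison.

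Markers of other cell types moved with the same groups. Over all genes, 19.5% were called lower on stimulation, 16.6% higher with TRAIL than in stimulated cells, and 2.49% higher and 2.13% lower with TRAIL than in medium. All 10 B cell markers were called lower on stimulation, 9 were called higher with TRAIL than in stimulated cells and 8 were called lower with TRAIL than in medium; Cd79a was at 555, 23.3 and 268 TPM as group means. The sum of 14 myeloid markers ranged from 2273 to 2532 TPM in medium, from 75.1 to 88.3 TPM after stimulation and from 1682 to 1928 TPM with TRAIL, with 14 called lower, 14 called higher and none called in the 3 comparisons; Lyz2 was at 545, 7.48 and 346 TPM and C1qa at 210.3, 3.06 and 217 TPM. Dendritic markers summed to 59.0 to 63.6, 4.73 to 6.77 and 35.9 to 39.4 TPM (Itgax 29.8, 3.06 and 16.6 TPM, Flt3 8.04, 2.64 and 5.77 TPM), and erythroid markers to 2137 to 2585, 24.8 to 39.6 and 619 to 669 TPM (Hbb-bs 590, 9.28 and 159 TPM, Hbb-bt 430, 5.41 and 123 TPM), with Slc4a1 listed at 0.0001 TPM in every stimulated library; reads of the near-identical Hbb-bs and Hbb-bt could be divided between them. The 6 markers of CD8 T cells and NK cells summed to 209 to 244, 106 to 115 and 76.1 to 80.3 TPM (Cd8a 39.0, 45.0 and 14.1 TPM, Cd8b1 74.8, 55.8 and 34.4 TPM). Within that list the NK cell genes moved differently from the CD8 genes: all 4 were called lower on stimulation and passed the test as higher with TRAIL than in stimulated cells, 3 of them called, with Ncr1 at 40.1, 2.64 and 8.44 TPM. The 8 T cell markers summed to 3219 to 3530, 2608 to 2666 and 3152 to 3572 TPM.

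Both B cells and myeloid cells express NF-κB and IκB genes, and the part of these cells in the levels of the 10 genes was not tested. Rel, Nfkbiz and Nfkbid were lower in stimulated cells than in both other groups, as were the B cell, myeloid and dendritic sums. Between TRAIL-treated and medium cells, these 3 genes were called higher, the B cell and dendritic sums were lower in every TRAIL-treated library than in any medium library, and of the 14 myeloid markers none was called, 1 rose (Cd14, by 0.55) and 5 fell. The 12 early-response and heat shock genes, which are known to be induced within a short time of a stimulus or of handling, had sums of 3060 to 3565 TPM in medium, 1110.2 to 1207 TPM after stimulation and 7695 to 8468 TPM with TRAIL. Of these 12, 2 were called higher and 7 lower on stimulation (12.4% and 19.5% of all genes), 10 were called higher with TRAIL than in stimulated cells (16.6%), 8 higher than in medium (2.49%) and 6 higher than both (1.35%). Fos was at 322, 6.97 and 478 TPM and Fosb at 175, 1.17 and 343 TPM, which is the order of Rel, Nfkbiz and Nfkbid. Both rose with TRAIL compared with medium without being called (0.57 and 0.98). Atf3 (2.07, 79.1 and 88.6 TPM) and Ier3 (5.72, 22.5 and 13.5 TPM) were the 2 called higher on stimulation. The part of such a response in the levels of Rel, Nfkbiz and Nfkbid was not tested.

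**Figure D5:**
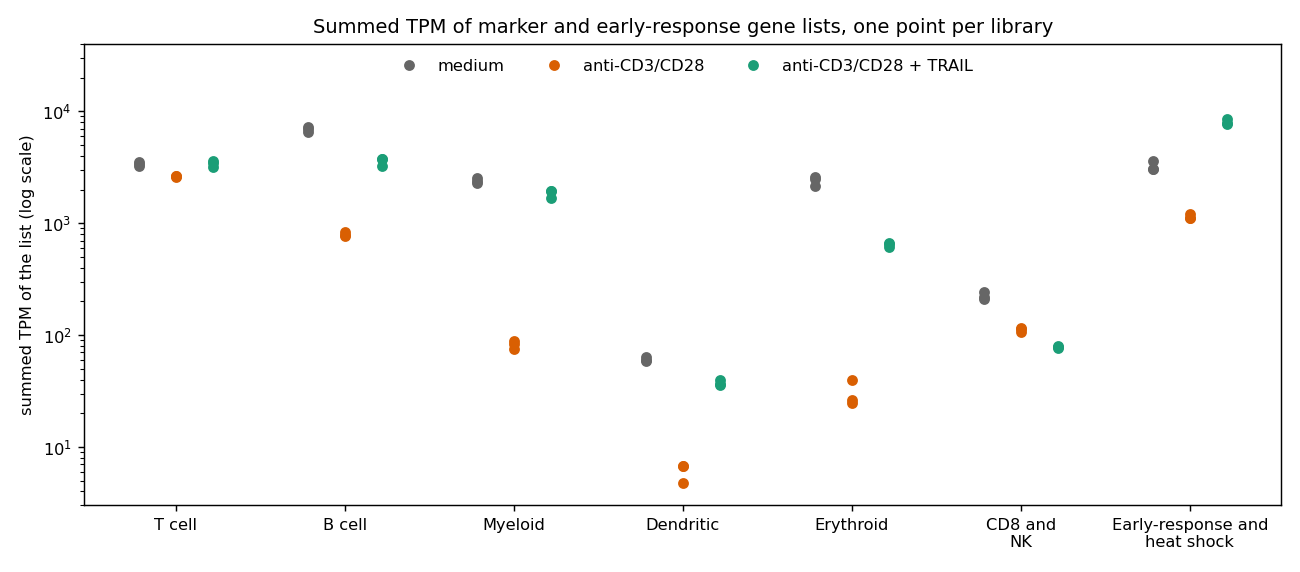
Summed TPM of the marker lists and of the early-response and heat shock list in each library (points, logarithmic axis), coloured by group. The B cell, myeloid, dendritic and erythroid sums are lowest in stimulated libraries, and the early-response and heat shock sum is highest in TRAIL-treated libraries, from 7695 to 8468 TPM.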

How the data were processed

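RNA-seq was analysed in 3 groups of 3 libraries, grouped and numbered as GEO's labels give them. The deposited TPM values were made by the authors, who trimmed reads, aligned them with HISAT2 and, by the methods, normalized counts with DESeq2; the submitters' processing notes list Trimmomatic 0.36, HISAT2 2.1.0, SAMtools 1.2 and StringTie 2.1.2. The methods name GRCm38, whereas the notes name GRCh38; 99.3% of 55141 matched Ensembl identifiers lay at the same GRCm38 locus in GENCODE M21. The program behind the TPM values, the annotation release and any use of strand in counting are not given in the sources used here. Each library sums to 1000000 TPM, so depth and counting error are unknown, and a value of 0.0001 TPM can stand for an undetected gene or a failed estimate.

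Tests were run with limma 3.58.1 (R 4.3.3) on log2(TPM + 1), as a linear model of all 9 libraries by group with moderated variances that follow a mean trend and with no term for the replicate number. Genes entered when 3 or more libraries reached 1 TPM (15536 genes). A call required p under 0.05 after Benjamini-Hochberg adjustment and a log2 fold change of 1 or more in either direction. With 3 libraries against 3, an exact permutation test allows no two-sided p under 0.1, and none was used. Fold changes are on the log2(TPM + 1) scale and understate those of low genes. The script was tested on simulated data. Alternatives varied the pseudocount, filter, scaling, variance trend, libraries fitted, replicate block and call threshold, and left out each library in turn.

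The 10 genes and all lists were chosen with earlier results of these data known. The text names every member, the called genes with the largest rise and fall of each pathway list (up to 3 each, with at least 10 TPM in a group), Bcl3, the first 2 markers of each list, and the 3 genes most correlated with each member. Cd4, Cd14, Ncr1, Atf3, Ier3, Gadd45b, Tnip1, Tnip2, Cyld, Otud7b, Nfkbil1, Ankrd1, Slc4a1, Sirt2 and the genes of the other observations were named after their values were seen. A few genes that this rule names are not reported here, though they count in their lists. Tables, motif search and figures used Python 3.11.15, pandas 2.3.3 and matplotlib 3.10.9.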

Additional observations from a re-analysis of the deposited data

How the results depend on the processing

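Of 540 values, from 30 log2 fold changes of the 10 genes under 18 alternatives, 526 kept their direction and their side of the threshold. The difference of Nfkbie between TRAIL-treated and stimulated cells, -0.05 as reported, changed sign under quantile normalization (0.042), under median-of-ratios scaling (0.044), without stimulated replicate 2 (0.0034) and without TRAIL-treated replicate 3 (0.0024); leaving out 1 library gave -0.10 to 0.0034. That of Rela between TRAIL-treated and medium cells became -0.037 without medium replicate 1, with -0.037 to 0.19 over the libraries left out. None of these passed the test under any of those settings. Quantile normalization also brought past the threshold Nfkbie on stimulation (0.26, adjusted p = 0.0195), and Nfkbie (0.30, adjusted p = 0.0255) and Relb (0.36, adjusted p = 0.0238) with TRAIL compared with medium.

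The members called numbered 4, 6 and 4 in the 3 comparisons under every alternative with the 2-fold minimum, leave-one-out fits included (4 to 4, 6 to 6 and 4 to 4). By the adjusted p alone, which is a looser rule by construction, they numbered 9, 9 and 5. The 45 pathway genes called, 20, 21 and 7 as reported, numbered 34, 33 and 17 by it. That looser rule passed 28.8% of all genes higher and 40% lower on stimulation, and 33.5% and 33.5% with TRAIL compared with stimulated cells. With TRAIL compared with medium it passed 8.03% higher and 24.6% lower. The pathway counts pool both directions, and by direction they did not all lie near these shares. On stimulation 21 of the 45 rose and 13 fell. With TRAIL compared with stimulated cells, 5 of the 25 target genes rose and 16 fell, and 7 of the 18 genes of IKK signaling rose and 3 fell. With TRAIL compared with medium, 10 target genes rose and 4 fell, and 2 genes of IKK signaling rose and 1 fell. Leaving out 1 library gave 18 to 21, 20 to 21 and 6 to 8 of these pathway genes. Same-numbered libraries did not deviate together (correlations of -0.31 to 0.29 over 9 pairs), so that the numbers are not taken to pair the samples; with the replicate block the counts were 4, 6 and 4 for members and 20, 21 and 7 for pathway genes.

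Over all genes tested, the median log2 fold change on stimulation moved from -0.15 to 0.04 under quantile normalization. That of TRAIL-treated against medium cells moved from -0.18 to -0.02 (median-of-ratios) or -0.04 (quantile). Against stimulated cells it moved from 0.011 to 0.093 (median-of-ratios) or -0.050 (quantile). Differences of the members under the sizes of these shifts cannot be told from the scaling. A member could move further, as Rela did with TRAIL compared with stimulated cells, from -0.57 to -0.35 under quantile normalization. The share of higher genes among those called moved from 38.8 to 52.1% on stimulation under quantile normalization. With TRAIL compared with medium it moved from 53.9 to 74.2% (median-of-ratios), 70.6% (quantile) or 65.1% (pseudocount 5). In that comparison it fell to 47.4% with a pseudocount of 0.1 and to 47.4% without TRAIL-treated replicate 1. TPM keeps no depth, so precision rests on 3 libraries per group.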

Other observations

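Transcripts of an RNA-degrading enzyme known to act on several members of the family were looked up after the values of the members had been seen. Zc3h12a encodes Regnase-1, an endonuclease known to cleave the mRNAs of Rel, Nfkbiz and Nfkbid in T cells, and Rc3h1 and Rc3h2 encode Roquin proteins that bind overlapping sets of mRNAs. Zc3h12a was at 23.7, 30.3 and 24.2 TPM in medium, at 20.1, 24.7 and 23.8 TPM after stimulation and at 70.2, 71.6 and 67.2 TPM with TRAIL. It was thus highest in the libraries in which Rel, Nfkbiz and Nfkbid were highest, by 1.57 ± 0.12 (limma on log2(TPM + 1), adjusted p = 1.3e-06) against stimulated and by 1.39 ± 0.12 (adjusted p = 3.5e-05) against medium cells, and its medium and stimulated libraries overlapped. Rc3h1 was at 28.2, 22.3 and 33.5 TPM and Rc3h2 at 33.5, 20.6 and 30.2 TPM as group means, and both rose with TRAIL compared with stimulated cells, by 0.59 (adjusted p = 0.0097) and 0.54 (adjusted p = 0.0200), without being called. The levels and activities of the proteins were not measured here.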
